A study of Rattus norvegicus with 12 samples.

Results

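Genes of the proteasome were followed by microarray in the left kidney of rats after ischemia-reperfusion injury (IRI), an operation that cuts off the blood flow to the organ before letting it return. The genes were all those whose name on the array begins with Psm and a letter from a to g followed by a digit, without Psmb8, Psmb9 and Psmb10, which encode the subunits of the immunoproteasome. The rule found 45 genes on 50 probes, among 26443 genes on 30367 probes in all. It used names and no measured value. Psmc3ip matched by its name but encodes a recombination protein, so 44 of the 45 genes have a role in the proteasome. Psma3 and Psma3l are counted as 2 of them by their names on the array, though RefSeq now names both Psma3.

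The rats were females of the inbred F344 strain and 10 weeks old. The groups were kidneys 7 days after unilateral IRI, kidneys 3 days after unilateral IRI, and kidneys of rats killed 7 days after a sham operation, with 4 arrays each, 1 per rat as the labels number them. Sham kidneys were sampled at day 7 alone, so injury and time cannot be told apart where day 3 is set against sham. Per the labels, RNA came from kidney tissue, so each value is a mix of all cells of the organ.

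The proteasome is the barrel-shaped protease that breaks down proteins tagged with ubiquitin. Its 20S core is built of rings of alpha subunits, which gate the entry, and rings of beta subunits, some of which cut peptide bonds. The 19S regulator caps the core, recognises ubiquitin, removes it and unfolds the substrate with a ring of ATPases. Other caps, the PA28 activators and PA200, open the core without ubiquitin, and dedicated chaperones put the particle together. In inflamed tissue interferon brings in other catalytic subunits, the immunoproteasome, which changes the peptides offered on MHC class I.

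Values are log2 levels of the processed signal minus the 75th percentile of the array, so a level of 0 is as bright as that percentile. Genes were compared with limma over 18518 genes, and a gene is called where its p adjusted by the Benjamini-Hochberg method was below 0.05. All 45 genes were tested. The probe that stood for each was well above background on all 12 arrays. The 75th percentile itself ran from 421.9 to 561.6 intensity units at day 7, from 665.2 to 743.2 at day 3 and from 224.7 to 394.2 in sham, with sham replicate 3 the lowest of all, so each change is relative to that percentile. The p-values measure the spread between these samples.

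Marker genes of several cell types differed between the groups. The linear signals of 6 proximal tubule markers, each divided by that percentile, summed to 94.5 to 185 at day 7, 25.2 to 77.6 at day 3 and 245 to 255 in sham. The same sum over 10 genes of dividing cells was 3.35 to 7.43 at day 7, 18.5 to 30.2 at day 3 and 1.72 to 2.74 in sham, and over 11 macrophage genes it was 28.7 to 40.4, 38.7 to 55.1 and 15.7 to 21.8 in that order of groups. At day 3, 5 of the 6 tubule genes were called lower, and all 10 genes of dividing cells and 8 of the 11 macrophage genes higher. Of all genes tested, 33.1% were called lower and 24.2% higher at day 3. In whole tissue a change in the share of a cell type and a change of RNA per cell cannot be told apart. The part of these cell types in the results below was not tested.

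At day 3 most proteasome genes were higher than in sham. Of the 45 genes, 34 were called higher and 2 lower, against 24.2% of all genes called higher and 33.1% called lower. The median difference of the 45 genes was 0.73 on the log2 scale, or 1.66-fold, and that of all genes tested was -0.13. The middle part of the 45 genes, between the quartiles, lay between 0.37 and 0.95. In 33 of them every day 3 array was above every sham array, which held for 22.2% of all genes, and in 2 every day 3 array was below every sham array (29.5% of all genes). In 10 genes the rise was called and at least 2-fold, against 12.7% of all genes.

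By day 7 the difference from sham was small for most. The median difference was 0.18, beside -0.07 for all genes. Psma5, Psme1 and Psme2 were called higher and Psmd3 and Psmd11 lower, that is 3 and 2 of 45 genes, against 8.21% and 10.6% of all genes. In 7 genes all day 7 arrays lay above all sham arrays, and in 2 all lay below. The background shares of such separation were 9.03% and 12.6%.

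Between the days the level came down. At day 7 against day 3, 18 of the 45 genes were called lower and 1 higher, against 13.4% and 18% of all genes. The median difference was -0.49, beside 0.05 for all genes. In 31 genes all day 7 arrays lay below all day 3 arrays, which held for 17.5% of all genes. The comparisons share arrays (the sham arrays serve both days), so they are not independent of one another. Without day 3 replicate 4, 10 genes were called lower at day 7 than at day 3.

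**Figure D1:**
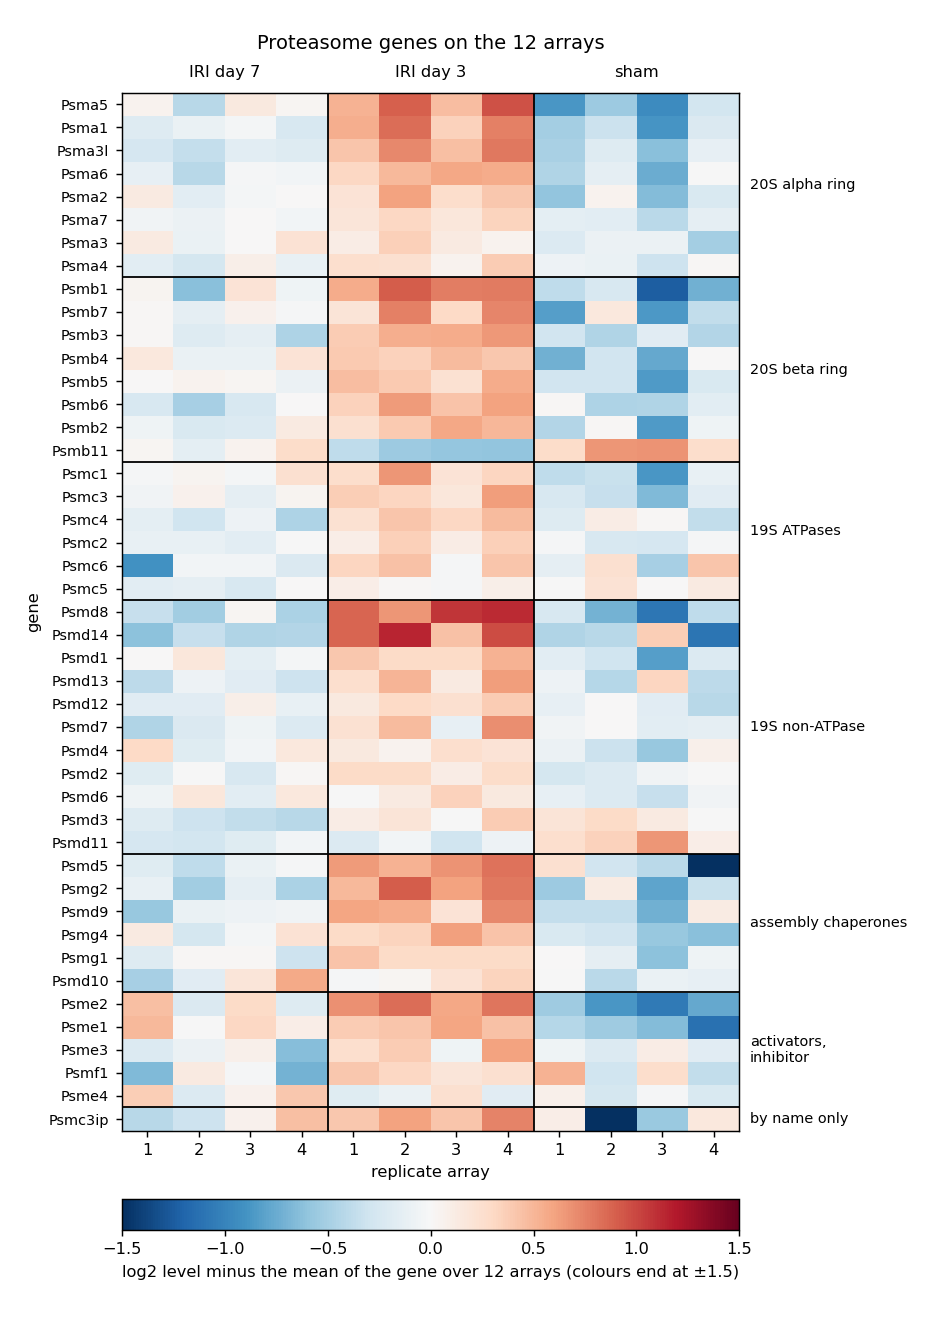
Log2 level of each of the 45 genes (down the page, by role and then by the difference at day 3) on each of the 12 arrays (across, by group), minus the mean of the gene over the arrays; red is above that mean and blue below. Most genes are red on the day 3 arrays, while Psmb11 and Psmd11 are reddest on the sham arrays.

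The rise at day 3 was seen on each array. The median deviation of the 45 genes from their own means over the 12 arrays was -0.17 to -0.03 on the day 7 arrays, 0.26 to 0.47 on the day 3 arrays and -0.49 to -0.16 on the sham arrays. The day 3 arrays stood apart from both other groups, and day 7 and sham overlapped only at their edges. Sham replicate 3 had the lowest value. Without it, 30 genes were called higher and 2 lower at day 3, with a median difference of 0.62. The arrays lay on 3 slides that each held all groups. Within the slides the median difference of the 45 genes at day 3 was 0.47, 0.57 and 0.91, that at day 7 against sham 0.04, 0.18 and 0.39, and that of day 7 against day 3 -0.40, -0.45 and -0.54. Each of the called genes kept its direction on every slide. The slides hold the same arrays that gave the calls. Where 2 groups do not overlap, the direction within a slide is fixed by that, so it is no separate support. After normexp background correction, which refits the background from the raw spot signals, 19 genes were called higher and 0 lower at day 3, and at day 7 none was called against sham or against day 3. The 15 genes that lost the call of a rise at day 3 under it included Psmb1 (0.66, limma adjusted p = 0.115), Psmb6 (0.59, adjusted p = 0.0601), Psmd5 (0.34, adjusted p = 0.449) and Psmd14 (0.19, adjusted p = 0.689), and Psmd13 turned to -0.32 (adjusted p = 0.512). The calls of Psmb11 (-0.87, limma adjusted p = 0.0729) and Psmd11 (-0.11, adjusted p = 0.742) as lower at day 3 were lost too, as were those of Psme1 (1.32, adjusted p = 0.0582) and Psme2 (0.87, adjusted p = 0.182) as higher at day 7. With normexp and without the spots below their local background, 34 genes were called higher and 2 lower. The calls at day 3 of Psma3 and Psmd13 were lost there, while those of Psmb1, Psmb6, Psmd5, Psmd14, Psmb11 and Psmd11 were kept. So were those of Psme1 and Psme2 at day 7.

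**Figure D2:**
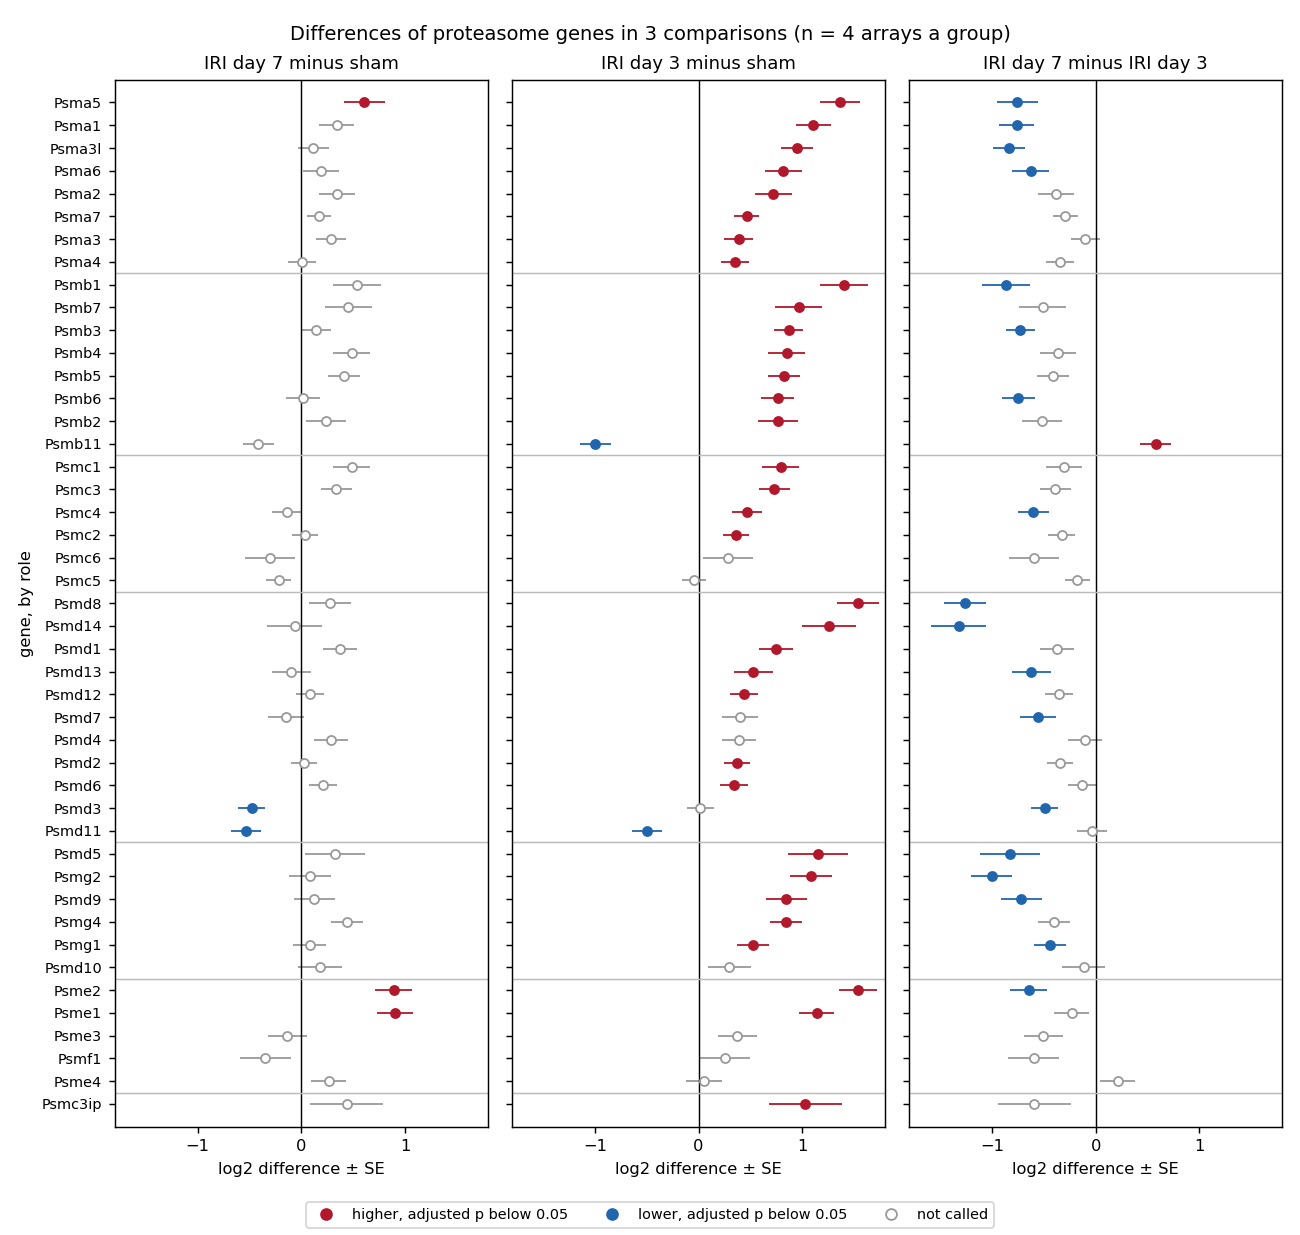
Log2 differences with their standard errors for the 45 genes (down the page, by role) at day 7 against sham, day 3 against sham and day 7 against day 3; filled points passed the test (red higher, blue lower) and open points did not. In the middle panel 34 points are red and 2 blue, in the left panel 3 are red and 2 blue, and in the right panel 1 is red and 18 are blue.

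Counts by role follow. Beside them, 24.2% of all genes were called higher and 33.1% lower at day 3, and 8.21% and 10.6% at day 7 against sham. At day 7 against day 3 the shares were 18% higher and 13.4% lower. The alpha ring rose as a whole at day 3. All 8 of its genes were called higher, with a median of 0.77 and a range of 0.35 to 1.36, and at day 7 only Psma5 was called against sham. Psma5, an alpha ring subunit, had log2 levels of 2.73, 2.26, 2.83 and 2.71 at day 7, 3.20, 3.57, 3.15 and 3.63 at day 3, and 1.81, 2.13, 1.74 and 2.41 in sham. The day 3 arrays stood above all others, and day 7 and sham met only in day 7 replicate 2 and sham replicate 4. Psma5 was higher than sham by 0.61 ± 0.20 at day 7 (SE, limma adjusted p = 0.0496) and by 1.36 ± 0.20 at day 3 (adjusted p = 0.000144), and lower at day 7 than at day 3 (-0.76 ± 0.20, adjusted p = 0.0148). The call at day 7 lies close to the threshold: without sham replicate 3 the difference of Psma5 was 0.52 with an adjusted p of 0.11, and the call was lost in 10 of the 12 fits that left out 1 array.

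Psma4, another alpha ring subunit, had the smallest rise of the ring. Its log2 levels were 0.27, 0.17, 0.52 and 0.32 at day 7, 0.69, 0.67, 0.48 and 0.82 at day 3, and 0.35, 0.33, 0.12 and 0.46 in sham. Day 3 lay above sham on every array and overlapped with day 7, and the day 7 and sham arrays were interleaved. The difference of Psma4 was 0.35 ± 0.14 at day 3 (limma adjusted p = 0.0423) and 0.01 ± 0.14 at day 7 (adjusted p = 0.977). The call at day 3 was lost in 8 of the 12 fits that left out 1 array, as without sham replicate 3 (0.29, limma adjusted p = 0.1). Psma1, Psma3l, Psma6 and Psma5 were the 4 alpha genes called lower at day 7 than at day 3. The probe named Psma3l on the array (chr6:93111009-93111068 on rn4) lies close to that of Psma3 (chr6:93112068-93112127). RefSeq now names both Psma3, so by current names the 8 alpha genes hold 1 gene under 2 names. Whether both probes measure the same RNA was not tested. The Psma3l probe was higher by 0.95 and the Psma3 probe by 0.39 at day 3.

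The constitutive beta ring also rose. All 7 of its genes, Psmb1 to Psmb7, were called higher at day 3, while Psmb11, the gene of a beta subunit of another form of the core, was called lower. The median over these 8 beta genes, Psmb11 included, was 0.84 at day 3 and 0.33 at day 7 against sham, where none was called. Psmb1, a structural beta subunit, had log2 levels of -0.61, -1.28, -0.45 and -0.71 at day 7, -0.09, 0.26, 0.12 and 0.13 at day 3, and -1.03, -0.90, -1.89 and -1.37 in sham. The day 3 arrays were above all others, and day 7 replicate 2 fell among the sham arrays. Psmb1 rose 2.65-fold at day 3, by 1.40 ± 0.23 (limma adjusted p = 0.00037), and the difference at day 7 was 0.53 ± 0.23 (adjusted p = 0.129). The rise of Psmb1 at day 3 was not called after normexp correction, as given above.

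Psmb5, Psmb6 and Psmb7 carry the cutting sites of the core, which are of the chymotrypsin, caspase and trypsin type in that order. Psmb5 had log2 levels of 2.08, 2.12, 2.10 and 1.97 at day 7, 2.52, 2.46, 2.29 and 2.63 at day 3, and 1.78, 1.78, 1.22 and 1.83 in sham. The 3 groups did not overlap, with sham replicate 3 far below the other sham arrays. Psmb5 was higher by 0.82 ± 0.16 at day 3 (limma adjusted p = 0.000885), and its difference of 0.41 ± 0.16 at day 7 did not pass (adjusted p = 0.0832).

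Psmb6 had log2 levels of -0.18, -0.44, -0.18 and 0.07 at day 7, 0.40, 0.70, 0.49 and 0.67 at day 3, and 0.08, -0.40, -0.38 and -0.09 in sham. Day 3 stood alone, and day 7 and sham covered the same range. Psmb6 was higher by 0.76 ± 0.16 at day 3 (limma adjusted p = 0.0017), its difference from sham at day 7 was 0.02 ± 0.16 (adjusted p = 0.953), and it was lower at day 7 than at day 3 (-0.75 ± 0.16, adjusted p = 0.00632). Psmb7 had log2 levels of 1.65, 1.49, 1.70 and 1.61 at day 7, 1.82, 2.38, 1.93 and 2.36 at day 3, and 0.80, 1.78, 0.77 and 1.26 in sham. Its sham arrays were spread widely and sham replicate 2 lay above the day 7 arrays. Psmb7 was higher by 0.97 ± 0.23 at day 3 (limma adjusted p = 0.00328), and its difference at day 7 was 0.45 ± 0.23 (adjusted p = 0.177).

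Psmb11 encodes the catalytic beta subunit of the thymoproteasome, a form of the core known from epithelial cells of the thymus cortex. It has 2 probes on the array, which are shown because they gave different signals. The first, at chr15:32705019-32705078 on rn4 (plus strand), stood for the gene, and the second lies at chr15:32703349-32703408. Capitals mark letters in runs of 16 that also occur in RefSeq promoter windows of other genes (GRCr8).
Psmb11 first probe: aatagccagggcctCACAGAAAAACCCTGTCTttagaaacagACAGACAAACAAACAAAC
Psmb11 second probe: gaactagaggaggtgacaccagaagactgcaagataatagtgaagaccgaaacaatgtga
The first probe shared such runs with 7 promoter windows, and 36 of its 60 bases lay in them. This was more windows than for any other probe of these genes, where the most was 4, for the probe of Psmd11. The second probe shared none and was well above background on 0 of the 12 arrays.

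The first Psmb11 probe had log2 levels of -1.14, -1.31, -1.11 and -0.89 at day 7, -1.55, -1.71, -1.74 and -1.76 at day 3, and -0.89, -0.50, -0.49 and -0.91 in sham. Day 3 was the lowest group, where it was the highest for the other beta genes, with no overlap between day 3 and the others. It was lower at day 3 than in sham (-0.996 ± 0.15, limma adjusted p = 0.000187), higher at day 7 than at day 3 (0.58 ± 0.15, adjusted p = 0.0143), and at day 7 its difference from sham was -0.42 ± 0.15 (adjusted p = 0.0722). Whether the first measures Psmb11 RNA was not tested.

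The immunoproteasome subunits, which are not among the 45 genes, were set against the constitutive ones they replace. Psmb8 takes the place of Psmb5, Psmb9 that of Psmb6 and Psmb10 that of Psmb7. Psmb8 had log2 levels of -1.07, -1.52, -0.73 and -1.59 at day 7, -0.18, -0.34, -0.04 and -0.10 at day 3, and -2.76, -2.54, -2.75 and -4.42 in sham, where the probe was well above background on 2 of 4 arrays. Psmb9 had 2.02, 1.44, 2.37 and 1.84 at day 7, 2.96, 3.19, 2.67 and 3.35 at day 3, and 0.08, 0.70, -0.41 and -0.16 in sham. Psmb10 had 2.36, 1.63, 2.29 and 1.79 at day 7, 2.81, 2.75, 2.63 and 2.68 at day 3, and 0.89, 0.81, 0.55 and 0.65 in sham. In each of these 3 genes the groups did not overlap, in the order day 3, day 7, sham from high to low. The differences from sham of Psmb9 and Psmb10 were 1.87 ± 0.26 and 1.29 ± 0.18 at day 7, and 2.99 ± 0.26 and 1.99 ± 0.18 at day 3, all called by limma (largest adjusted p = 0.00122). Psmb8 was well above background on all arrays of both days, which alone brought it past the filter on dim probes, so its differences of 1.89 ± 0.36 at day 7 and 2.95 ± 0.36 at day 3 rest on a sham level that only 2 of 4 arrays measured; after normexp correction they were 0.19 (limma adjusted p = 0.816) and 0.80 (adjusted p = 0.179), neither called.

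**Figure D3:**
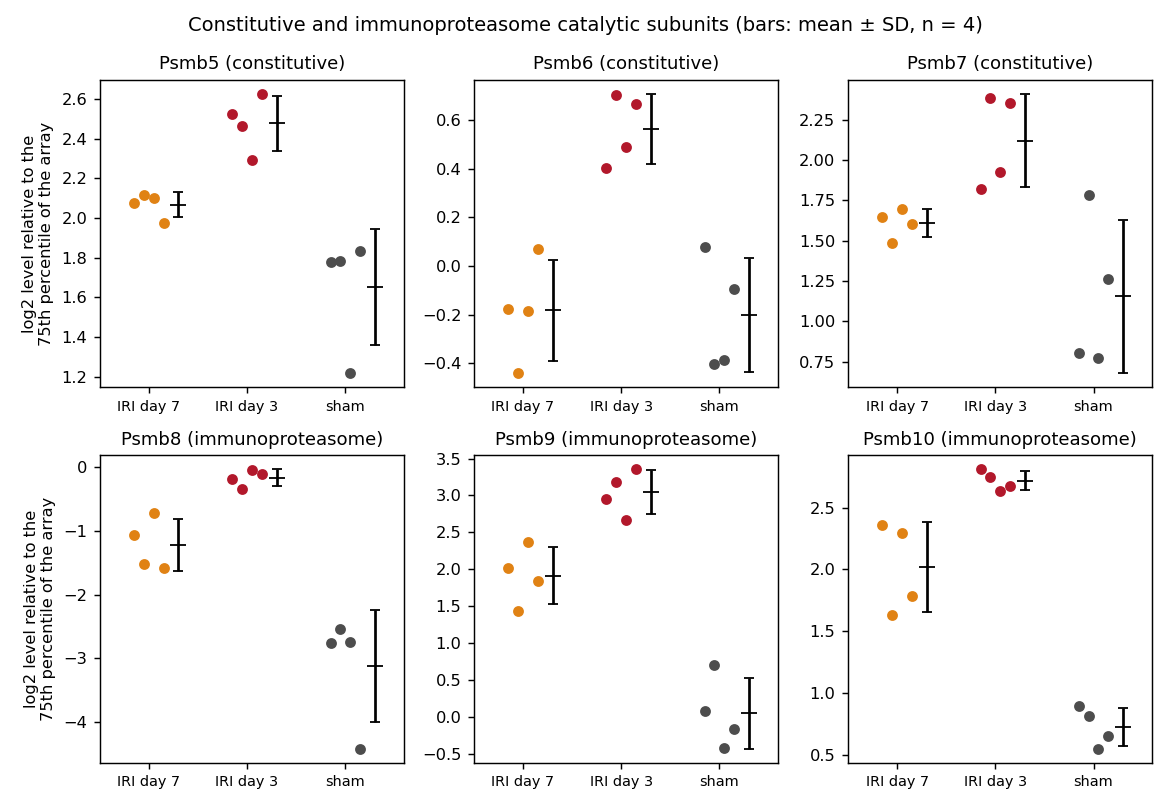
Log2 levels, with the array's 75th percentile at 0, of the constitutive catalytic subunits (top) and the immunoproteasome subunits that replace them (bottom); points are the 4 arrays of a group and bars the mean ± SD, and each panel has its own axis. In the bottom panels the groups are fully apart, with differences from sham at day 3 of 2.99 for Psmb9 and 1.99 for Psmb10, against 0.76 for Psmb6 and 0.97 for Psmb7 above them; Psmb8 was well above background on 2 of 4 sham arrays.

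The difference between 2 probes on the same array does not depend on the scaling of the arrays, and it was compared between the groups with exact two-sided permutation tests. There were 5 differences in 3 comparisons, with p-values adjusted over these 15. The smallest p that 4 against 4 arrays allow is 0.0286, which becomes 0.039 after adjustment. These values compare changes, not levels. Psmb9 minus Psmb6 was greater than in sham by 1.85 at day 7 and by 2.23 at day 3, and Psmb10 minus Psmb7 by 0.84 and 1.02. In all 4 cases the groups did not overlap (exact permutation p = 0.0286, adjusted p = 0.039). Between the days Psmb9 minus Psmb6 differed by -0.38 (exact permutation, adjusted p = 0.214) and Psmb10 minus Psmb7 by -0.19 (adjusted p = 0.459).

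The values for Psmb8 rested on dim spots. Psmb8 minus Psmb5 was greater than in sham by 1.48 at day 7 and by 2.12 at day 3, and lower by 0.65 at day 7 than at day 3 (-0.65), each with an adjusted p of 0.039 (exact permutation). Without sham replicate 4, whose Psmb8 signal was the lowest, it was greater than in sham by 0.98 at day 7 and by 1.63 at day 3. After normexp background correction its sign turned, and it differed from sham by -0.59 at day 7 (exact permutation, adjusted p = 0.643) and by -0.41 at day 3 (adjusted p = 0.735). The other pairs kept their direction under that correction, but none was called against sham. Their adjusted p was 0.0612 at both days for Psmb9 minus Psmb6, Psmb10 minus Psmb7 and Psme1 minus Psme3 (exact permutation), where 0.0286 stayed the smallest p possible before adjustment. With normexp and without the spots below their local background it was 0.0536 for these pairs and for Psme2 minus Psme3. Psmb8 minus Psmb5 did not turn its sign there: it was greater than in sham at both days, but not called.

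**Figure D4:**
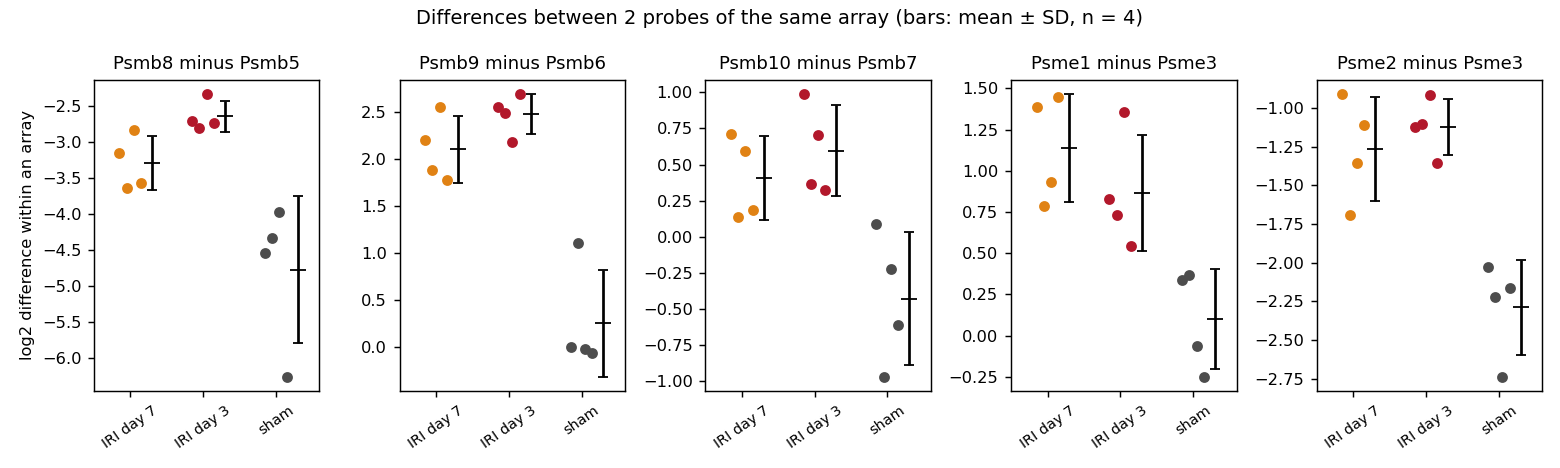
Log2 difference between 2 probes of the same array, for the immunoproteasome subunits against the constitutive subunits they replace and for PA28 alpha and beta against PA28 gamma; points are the 4 arrays of a group and bars the mean ± SD. In all 5 panels the day 7 and the day 3 arrays lie above the sham arrays.

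The ATPases of the 19S base unfold the substrate and feed it into the core. Of 6, 4 were called higher at day 3 and none lower, with a median of 0.42. At day 7 none was called against sham and the median was -0.05. Psmc1 rose most. Its log2 levels were 1.41, 1.46, 1.39 and 1.66 at day 7, 1.69, 2.08, 1.62 and 1.75 at day 3, and 1.04, 1.09, 0.55 and 1.30 in sham. The arrays of both days were above all sham arrays and overlapped with each other. Psmc1 was higher by 0.79 ± 0.18 at day 3 (limma adjusted p = 0.00248), and its difference at day 7 was 0.49 ± 0.18 (adjusted p = 0.0736).

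Psmc5 was not called in any comparison. Its log2 levels were 4.20, 4.23, 4.12 and 4.36 at day 7, 4.45, 4.37, 4.34 and 4.45 at day 3, and 4.35, 4.58, 4.37 and 4.49 in sham. The 3 groups overlapped, within a narrow band. The difference of Psmc5 was -0.04 ± 0.12 at day 3 (limma adjusted p = 0.78) and -0.22 ± 0.12 at day 7 (adjusted p = 0.217). Psmc6 was not called either (0.29 ± 0.24 at day 3, limma adjusted p = 0.325). Psmc4 was the only ATPase called lower at day 7 than at day 3, with a difference of -0.60 ± 0.15.

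The non-ATPase subunits make up the rest of the 19S regulator, with its ubiquitin receptors and the lid. Of 11, 7 were called higher and 1 lower at day 3, with a median of 0.40 and a range of -0.50 to 1.54. At day 7 none was called higher and 2 lower. Psmd8, a subunit of the lid that completes its assembly in yeast, had log2 levels of -0.87, -1.04, -0.50 and -0.997 at day 7, 0.35, 0.14, 0.55 and 0.60 at day 3, and -0.76, -1.24, -1.61 and -0.91 in sham. Day 3 stood far above the other groups, which were interleaved. Psmd8 rose 2.90-fold at day 3, by 1.54 ± 0.20 (limma adjusted p = 8.85e-05), its difference at day 7 was 0.28 ± 0.20 (adjusted p = 0.37), and it was lower at day 7 than at day 3 (-1.26 ± 0.20, adjusted p = 0.00182).

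Psmd14, the enzyme of the lid that cuts the ubiquitin chain off the substrate, was singled out after its values were seen. Its log2 levels were -2.41, -2.15, -2.26 and -2.25 at day 7, -0.93, -0.66, -1.37 and -0.82 at day 3, and -2.25, -2.22, -1.44 and -2.90 in sham. The day 3 arrays were the 4 highest, with sham replicate 3 next to them. Psmd14 was higher by 1.26 ± 0.26 at day 3 (limma adjusted p = 0.00162) and lower at day 7 than at day 3 (-1.32 ± 0.26, adjusted p = 0.00438), the largest such drop of the 45 genes. After normexp correction neither was called: the difference of Psmd14 at day 3 was 0.19 (limma adjusted p = 0.689), and that between the days was -0.54 (adjusted p = 0.527), smaller than the -0.95 of Psmd8, whose rise at day 3 was then 0.83 and still called (limma adjusted p = 0.0396).

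Psmd11 and Psmd3 were the genes called lower than sham at day 7. Psmd11, a scaffold subunit of the lid, had log2 levels of 1.08, 1.06, 1.15 and 1.29 at day 7, 1.13, 1.30, 1.03 and 1.26 at day 3, and 1.58, 1.68, 2.0 and 1.44 in sham. All arrays of both days lay below all sham arrays. It was lower by 0.53 at day 7 (-0.53 ± 0.15, limma adjusted p = 0.0263) and by 0.50 at day 3 (-0.50 ± 0.15, adjusted p = 0.012), with a difference between the days of -0.04 ± 0.15. Scaled to the total signal or to the median probe, Psmd11 was not called at day 3 (-0.22, adjusted p = 0.182, and -0.29, adjusted p = 0.125). The Psmd11 probe shared runs of 16 letters with 4 promoter windows of other genes. Whether it measures Psmd11 RNA alone was not tested. Of the 50 probes, 5 shared a run of 16 letters with a probe of another name on the array. These were the probes of Psmb3, Psmb4, Psmd8, Psme2 and Psme3, while those of Psmd11 and Psmb11 shared none. Whether these 5 probes measure the RNA of their gene alone was not tested either.

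Psmd3, another lid subunit, had log2 levels of 0.96, 0.84, 0.79 and 0.74 at day 7, 1.27, 1.35, 1.15 and 1.54 at day 3, and 1.35, 1.44, 1.29 and 1.16 in sham. The day 7 arrays were the 4 lowest, and day 3 and sham covered one range. It was lower at day 7 than in sham (-0.48 ± 0.13, limma adjusted p = 0.0269) and than at day 3 (-0.49 ± 0.13, adjusted p = 0.016), and its difference at day 3 from sham was 0.02 ± 0.13. The calls of Psmd3 and Psmd11 at day 7 were also lost on leaving out single arrays: without day 7 replicate 3, Psmd3 had -0.46 (adjusted p = 0.0692) and Psmd11 -0.53 (adjusted p = 0.0602).

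Chaperones help to build the proteasome and do not stay in it. Of 6, 5 were called higher at day 3, with a median of 0.85, and none was called at day 7 against sham; 4 of 6 were called lower at day 7 than at day 3. Psmd5, which holds base ATPases during assembly, had log2 levels of -1.56, -1.76, -1.49 and -1.40 at day 7, -0.74, -0.86, -0.71 and -0.58 at day 3, and -1.14, -1.68, -1.79 and -2.90 in sham. The day 3 arrays were the highest, and the sham arrays were spread widely around the day 7 arrays. Psmd5 was higher by 1.15 ± 0.29 at day 3 (limma adjusted p = 0.00516), and its difference at day 7 was 0.32 ± 0.29 (adjusted p = 0.47). After normexp correction the rise of Psmd5 at day 3 was 0.34 and not called (limma adjusted p = 0.449). Psmg1 and Psmg2, which form a pair that starts the alpha ring, were higher by 0.52 ± 0.16 and 1.09 ± 0.20 at day 3.

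Psmd10, known as gankyrin, had log2 levels of 1.66, 1.98, 2.33 and 2.72 at day 7, 2.13, 2.19, 2.37 and 2.49 at day 3, and 2.15, 1.74, 2.06 and 2.03 in sham. The groups overlapped and the day 7 arrays had the widest spread. Its difference of 0.30 ± 0.21 at day 3 was not called (limma adjusted p = 0.243), nor was that of 0.18 ± 0.21 at day 7 (adjusted p = 0.59). The 2 probes of Psmd9 gave 0.85 and 0.89 at day 3, and those of Psmg4 0.84 and 0.87, all of them called higher.

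The PA28 activators differed in their calls. Psme1 and Psme2 encode PA28 alpha and beta, which form a ring together and are known to respond to interferon, while Psme3 encodes PA28 gamma, a ring of its own in the nucleus. Psme1 had log2 levels of 4.06, 3.57, 3.89 and 3.68 at day 7, 3.95, 3.99, 4.17 and 4.01 at day 3, and 3.15, 3.03, 2.93 and 2.46 in sham. Psme2 had 1.76, 1.095, 1.60 and 1.12 at day 7, 1.9997, 2.16, 1.90 and 2.12 at day 3, and 0.78, 0.44, 0.25 and 0.54 in sham. For both genes all arrays of both days lay above all sham arrays, and in Psme2 the days did not overlap either.

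Psme1 was higher by 0.91 ± 0.17 at day 7 (limma adjusted p = 0.00516) and by 1.14 ± 0.17 at day 3 (adjusted p = 0.000189). Psme2 was higher by 0.89 ± 0.18 at day 7 (adjusted p = 0.00724, limma) and by 1.54 ± 0.18 at day 3 (adjusted p = 4.22e-05), and lower at day 7 than at day 3 (-0.65 ± 0.18, adjusted p = 0.0198). They were the 2 genes of the 45 with the largest differences at day 7. Psme3 had log2 levels of 2.67, 2.78, 2.96 and 2.23 at day 7, 3.12, 3.26, 2.81 and 3.47 at day 3, and 2.81, 2.67, 2.99 and 2.71 in sham. Its groups overlapped, and its differences of -0.13 ± 0.19 at day 7 and 0.37 ± 0.19 at day 3 were not called (limma adjusted p = 0.661 and 0.107). Without day 3 replicate 3, Psme3 was called higher at day 3 (0.49, limma adjusted p = 0.0444). It was also called higher there with the authors' deposited log2 values (0.47, limma adjusted p = 0.0463). The same held scaled to the total signal (0.65, adjusted p = 0.0144) or to the median probe (0.58, adjusted p = 0.0272). With normexp and without the spots below local background it was called too (0.47, adjusted p = 0.0286). Under the other alternatives Psme3 was not called at day 3.

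Within the arrays, Psme1 minus Psme3 was greater than in sham by 1.04 at day 7 and by 0.77 at day 3, and Psme2 minus Psme3 by 1.02 and 1.17. In all 4 cases the groups did not overlap (exact permutation p = 0.0286, adjusted p = 0.039). Between the days the differences were 0.27 (exact permutation, adjusted p = 0.264) and -0.14 (adjusted p = 0.543). After normexp correction Psme2 minus Psme3 differed from sham by 0.57 at day 7 (exact permutation, adjusted p = 0.333) and by 0.62 at day 3 (adjusted p = 0.214), neither called.

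**Figure D5:**
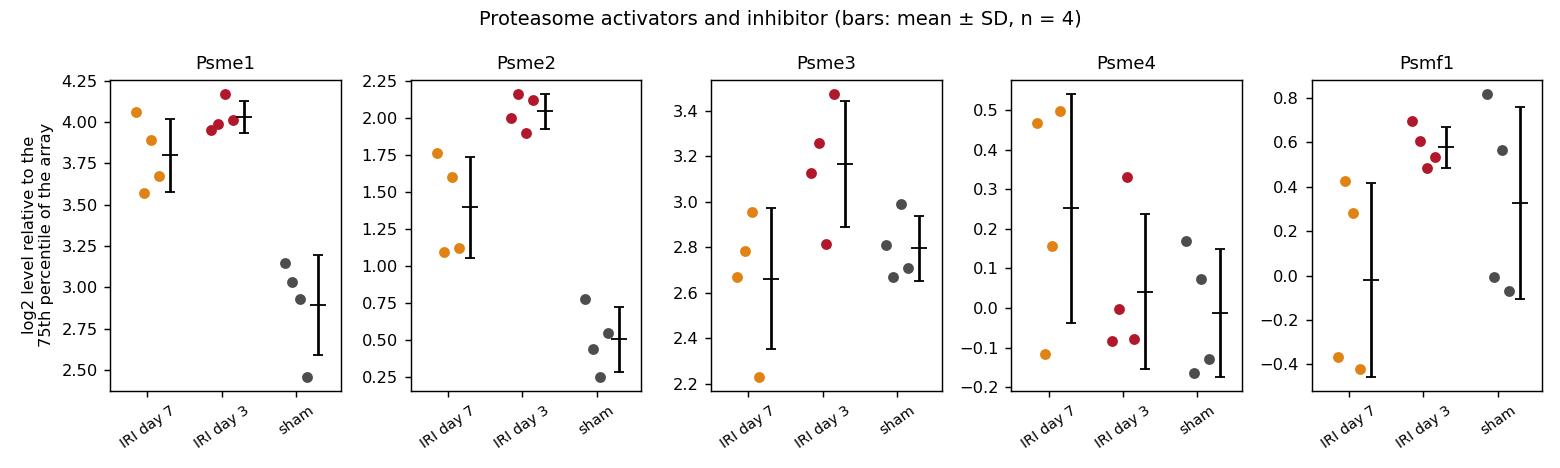
Log2 levels, with the array's 75th percentile at 0, of the PA28 genes Psme1, Psme2 and Psme3, of Psme4 (PA200) and of the inhibitor Psmf1; points are the 4 arrays of a group and bars the mean ± SD, and each panel has its own axis. Psme1 and Psme2 are above sham at day 7 and at day 3, by 0.91 and 1.14 and by 0.89 and 1.54, while the groups of the other genes overlap or, in Psmf1 between the days, are apart without a call.

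Psme4, which encodes PA200, had log2 levels of 0.47, -0.12, 0.16 and 0.50 at day 7, -0.08, -0.00, 0.33 and -0.08 at day 3, and 0.17, -0.16, 0.07 and -0.13 in sham. The groups overlapped and no comparison was called. Its 2 probes differed by 0.05 and 0.38 from sham at day 3, neither of them called. Psmf1 encodes PI31, named as an inhibitor of the core in the test tube. Its brighter probe (chr3:142069091-142069150 on rn4) differed from sham by -0.35 ± 0.24 at day 7 and 0.25 ± 0.24 at day 3, neither called, while its other probe (chr3:142058716-142058775) was higher by 0.55 ± 0.16 at day 3 (limma adjusted p = 0.0105 over all probes) and had a difference of 0.34 ± 0.16 at day 7. The probes of Psmf1 had opposite signs at day 7, neither called, and all 60 bases of the brighter one also occur in the promoter window of an uncharacterised gene on the same chromosome. Psmc3ip, the member by name only, was higher by 1.03 ± 0.35 at day 3 (limma adjusted p = 0.025).

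The promoters were searched for motifs because many of these genes moved together. RefSeq promoter windows (GRCr8) were found for 39 of the 45 genes, and the 250 bases before the start were searched on both strands. NFE2L1 and NFE2L2 bind the antioxidant response element. TGANNNNGC, a loose pattern for the core of that element, was found in 17 of 39 (43.6%), against 34.7% of 33469 promoters. CCAAT, the box of NF-Y, was found in 19 (48.7%), against 34%. The NRF1 motif was found in 5 (12.8%), against 3.75%, and the interferon-stimulated response element in 4 (10.3%), against 3.41%, namely Psma4, Psmb3, Psmd7 and Psme2. Motifs may overlap, and a match describes the letters of the window only. The 250 bases before the start of Psma5, Psmb5 and Psme2 are shown for an alpha ring subunit, a catalytic subunit and an activator, and those of Psmb10 for the immunoproteasome, with every match to a motif in capitals.
Psma5 (chr2:198584255-198584504, plus strand): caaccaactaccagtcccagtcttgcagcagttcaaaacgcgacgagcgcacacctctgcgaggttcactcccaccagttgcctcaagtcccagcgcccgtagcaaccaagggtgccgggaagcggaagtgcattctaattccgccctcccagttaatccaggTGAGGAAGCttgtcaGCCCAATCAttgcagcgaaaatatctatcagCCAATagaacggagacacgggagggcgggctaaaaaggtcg
Psmb5 (chr15:32047380-32047629, minus strand): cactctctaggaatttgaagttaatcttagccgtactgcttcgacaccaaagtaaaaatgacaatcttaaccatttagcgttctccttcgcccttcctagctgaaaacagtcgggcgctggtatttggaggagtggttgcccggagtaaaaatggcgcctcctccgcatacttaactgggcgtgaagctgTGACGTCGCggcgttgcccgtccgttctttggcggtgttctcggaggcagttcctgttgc
Psme2 (chr15:33052752-33053001, minus strand): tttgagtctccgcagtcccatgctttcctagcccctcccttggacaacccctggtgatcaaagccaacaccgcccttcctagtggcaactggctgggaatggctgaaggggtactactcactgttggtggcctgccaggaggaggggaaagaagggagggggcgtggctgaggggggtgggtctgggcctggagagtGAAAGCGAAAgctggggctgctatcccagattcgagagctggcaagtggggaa
Psmb10 (chr19:50743293-50743542, minus strand): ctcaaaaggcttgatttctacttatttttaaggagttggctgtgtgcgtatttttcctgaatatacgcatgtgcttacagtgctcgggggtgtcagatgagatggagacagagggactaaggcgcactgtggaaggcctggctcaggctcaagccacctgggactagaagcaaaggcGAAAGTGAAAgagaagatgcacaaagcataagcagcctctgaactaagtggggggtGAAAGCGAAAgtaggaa
Psma5 held TGANNNNGC and CCAAT at 2 places each, and 1 match of each overlaps the other, and Psmb5 held TGANNNNGC alone, 60 bases before the start. Psme2 held the interferon-stimulated response element 53 bases before the start, and Psmb10 held it at 2 places. The windows of Psmb8, Psmb9 and Psme1 held no match to it, so 1 of the 3 immunoproteasome genes had one within these 250 bases. The window of Tap1, a gene of MHC class I antigen processing, was searched too. It overlaps that of Psmb9 and held a match 121 bases before the start of Tap1, outside the window of Psmb9.

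Sem1, Pomp and Nfe2l1 below were singled out after their values were seen, while Ddi2 is given as the largest called fall of its list. Of 16 tested partners of the particle, 8 were called higher and none lower at day 3, against 24.2% and 33.1% of all genes, with a median of 0.57, and 7 were called lower at day 7 than at day 3. Ubqln2, a shuttle that carries ubiquitinated proteins to the proteasome, was higher by 1.13 ± 0.22 (limma adjusted p = 0.00101), but its probe was well above background on 3 of 4 day 7, 4 of 4 day 3 and 3 of 4 sham arrays and so passed the filter through day 3 alone. Sem1, a small subunit of the lid, rose by 0.95 ± 0.18 (limma adjusted p = 0.000835), and Pomp, which drives the maturation of the core, by 0.57 ± 0.16 (adjusted p = 0.0106). NFE2L1 is the factor known to raise proteasome genes when the proteasome falls short. Of 12 tested genes around it, 2 were called higher and 4 lower at day 3, which is no larger a share than the 24.2% of all genes called higher and close to the 33.1% called lower. Nfe2l1 itself was lower (-0.72 ± 0.23, limma adjusted p = 0.0179), as was Ddi2, the protease that activates it (-1.003 ± 0.20, adjusted p = 0.00105), while Mafg, a small partner of such factors, was higher (0.73 ± 0.19, adjusted p = 0.00569).

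Of 18 genes for ubiquitin and its conjugation, 10 were called higher and 3 lower at day 3. For this list and the MHC class I and interferon lists below, the shares of all genes at day 3 were 24.2% and 33.1%. Ube2c, which serves the breakdown of mitotic proteins, rose most, by 4.04 ± 0.22 (limma adjusted p = 9.71e-07), beside the rise of the dividing cell genes given above, all 10 of which were called. Ube2k, an enzyme that extends ubiquitin chains, fell most (-0.73 ± 0.17, adjusted p = 0.00386). Of 11 tested genes of MHC class I antigen processing, 7 were called higher and none lower, led by RT1-A2 (2.36 ± 0.24, limma adjusted p = 1.96e-05). Of 18 interferon response genes, 13 were called higher and 1 lower at day 3. Cxcl10, a chemokine that draws in T cells, was well above background on 0 of 4 sham, 3 of 4 day 7 and 4 of 4 day 3 arrays. Its probe so passed the filter on dim probes through day 3 alone. The level of Cxcl10 at day 3 was at least 15.3-fold that of sham. For this bound each sham array was taken at the dimmest probe well above background, or at its own signal where that was higher. The bound itself was not tested. Mx2 was the 1 gene lower (-1.54 ± 0.20, adjusted p = 8.55e-05).

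Autophagy with the lysosome, the other main route of protein breakdown, was measured beside it. Of 17 genes, 3 were called higher and 4 lower at day 3, below the shares of all genes given above, with a median of -0.06, beside -0.13 for all genes. Ctsd, a lysosomal protease, was higher by 0.94 ± 0.19 (limma adjusted p = 0.00154), and Gabarapl1, a protein of the autophagosome membrane, was lower (-1.21 ± 0.13, adjusted p = 2.25e-05). At day 7 against sham, the counts higher and lower were 0 and 2 of the 16 partners, 1 and 2 of the 12 NFE2L1 genes, 4 and 0 of the 18 ubiquitin genes, 4 and 1 of the 11 MHC class I genes, 6 and 0 of the 18 interferon genes, and 1 and 1 of the 17 autophagy and lysosome genes, against 8.21% and 10.6% of all genes. The counts of the partners, the NFE2L1 genes and the autophagy and lysosome genes lie near those shares.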

How the data were processed

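RNA of the left kidney was hybridised to rat arrays in 1 colour (Cy3), per the labels' protocols, which name a DNA labelling kit. Feature Extraction 9.5.1.1 read the spots, with probes placed on rn4, per the file headers. The processed signal, mean spot signal and local background are intensities, per the file headers, and the spot flags there are 0 or 1. The authors' deposited value table holds log2 values. They were relative to each probe's median, which was nowhere above 4.8e-07. Array by array they followed the scanner signals (lowest r = 0.998 across 30367 probes). A constant added to an array leaves that r unchanged, so it cannot show how the authors scaled the arrays. The day 3 differences from sham of Psmd4, Psmd7 and Psme3 were 0.49, 0.50 and 0.47 with these values. They were 0.39, 0.40 and 0.37 with the scaling used here, so the 2 scalings were not the same. The deposited table served as an alternative.

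Each array's 75th percentile was subtracted from the log2 processed signals. Outlier spots were set aside and spots of 1 probe averaged. A probe was kept (21071) if it was well above background on every array of some group, and the brightest probe stood for its gene (18518 genes). Names were updated through RefSeq (GRCr8). Differences between group means came from limma 3.58.1 (lmFit, eBayes; R 4.3.3) fitted over 12 arrays, with Benjamini-Hochberg adjustment over all genes and a threshold of 0.05. The fit was tested on simulated data.

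The members and lists were chosen with earlier results of these data known. Values in every sample are given for the catalytic subunits, their immunoproteasome counterparts and PA28, for the genes with the largest and smallest difference of each role at day 3, and for genes called against most others. Other lists are given by counts and their largest called rise and fall. Of 12 array pairs that share a replicate number, 3 fitted their own number best, and the deviations correlated at -0.330 to 0.142, so the numbers do not pair rats. Alternatives covered scaling, background, filters, probes, blocks and single arrays left out. The number of arrays limits the precision.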

Additional observations from a re-analysis of the deposited data

Results flagged for a closer look

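In 3 of 84 sets of 4 values, 1 array stood far from the other 3; chance gives such a gap in about 5% of sets. Psmb5 in sham replicate 3 was at 1.22 on the log2 scale, while the nearest sham array was at 1.78. Psmb8 in sham replicate 4 was at -4.42, while the nearest was at -2.76. Its probe was well above background on 2 of the 4 sham arrays. Psmb9 minus Psmb6 in sham replicate 2 was 1.11, while the nearest array was at -0.0022.

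The difference from sham was not the same at both days for 19 of the 45 proteasome genes, as tested by limma for day 7 against day 3: 18 were lower at day 7 and Psmb11 higher. The within-array difference of Psmb8 and Psmb5 also differed between the days, by -0.65 (exact permutation, adjusted p = 0.039), with all day 7 arrays below all day 3 arrays. After normexp correction it was -0.18 and not called (adjusted p = 0.692).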

How the results depend on the processing

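Counts below are of the 45 proteasome genes unless all genes are named. They show how the calls moved with the setting. For most settings the share of all genes called under the same setting is not given beside them. Such counts are therefore no result about the proteasome genes against the other genes. Normexp background correction changed most: it called 91 genes of all at day 7 against sham, 3181 at day 3 against sham and 160 at day 7 against day 3, with 19 proteasome genes higher at day 3 and 0 in each other set. Under it the within-array differences from sham were, in the order Psmb8 minus Psmb5, Psmb9 minus Psmb6, Psmb10 minus Psmb7, Psme1 minus Psme3 and Psme2 minus Psme3, -0.59, 1.70, 0.76, 1.02 and 0.57 at day 7 and -0.41, 2.22, 0.98, 0.77 and 0.62 at day 3, and Psmb8 minus Psmb5 differed between the days by -0.18. None of these passed: the adjusted exact permutation p was 0.0612 for the pairs of Psmb9, Psmb10 and Psme1 against sham, 0.643 and 0.735 for Psmb8, and 0.333 and 0.214 for Psme2. At most 25 spots per array, on 6 arrays, lay below their local background. With normexp and without those spots the values were 0.40, 1.73, 0.79, 1.03 and 0.90 at day 7, 0.70, 2.19, 0.99, 0.77 and 0.999 at day 3, and -0.30 between the days, again none called (0.0536 against sham for all pairs but that of Psmb8, with 0.363 and 0.156). There 28 genes were lower between the days. The 2 normexp settings differed only in the spots below their local background. Without these spots, 5 of 5 calls of the proteasome genes were kept at day 7 against sham, 34 of 36 at day 3 and 18 of 19 between the days. With them 0, 19 and 0 were kept. Why so few spots changed the fit was not tested.

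At day 7 against sham, 7 genes were higher with quantile normalization and with a trended, robust eBayes, and 17 with scaling to the total signal. No gene was lower there with total or median scaling, without the filter, with the replicate block, or with only the 2 groups fitted (which called 2088 of all genes). At day 3, 1 gene was lower with total or median scaling. With median scaling, 29 were lower and 0 higher at day 7 than at day 3. Total scaling moved the median of all genes to 0.17 at day 7 and 0.15 at day 3. Of the called genes at day 7 against sham, 43.6% were higher, against 78.0% with total scaling; at day 3 it was 42.2% against 58.6%, and between the days 57.3% against 42.2% with median scaling.

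Leaving out 1 array gave 2041 to 3478 genes of all at day 7 against sham, 9304 to 10656 at day 3, and 3478 to 6672 between the days. The low counts at day 7 against sham were 2224 without day 7 replicate 1 and 2041 without replicate 3, and between the days 3706 without day 3 replicate 2, 3478 without day 3 replicate 4 and 3862 without day 7 replicate 4. The proteasome genes higher were 2 to 5 at day 7 (5 without sham replicate 4) and 27 to 34 at day 3, and those lower 0 to 2 (0 without day 7 replicate 3) and 2. Between the days 10 (without day 3 replicate 4) to 22 were lower and 1 higher.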
